A study of Hydra vulgaris with 113 samples.

Results

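The 317 peaks described here are regions of Hydra vulgaris chromatin that were more open at 3 h after bisection than at 0 h on both sides of the cut, and had closed again by 12 h. They were chosen from 115968 peaks by their levels in untreated libraries. A level is the read count in a peak scaled to the library's total over all peaks (CPM, count divided by total, times 1000000), averaged over the libraries of a group. It is not divided by peak width. A peak was taken when its level at 3 h was at least 2 CPM in head and in foot regenerates and its log2(CPM + 0.5) at 3 h exceeded that at 0 h by at least 1 on each side. The same value at 12 h had to lie less than 0.5 above 0 h on each side, with head and foot less than 0.5 apart at 12 h. These peaks are called transient peaks below.

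Hydra is a freshwater polyp that rebuilds a head or a foot after being cut across the body column. ATAC-seq uses a transposase that inserts adapters into accessible DNA, so that reads pile up over promoters, enhancers and other regions where nucleosomes are displaced. Wnt signalling through β-catenin and its DNA-bound partner TCF is the pathway known for head organizer formation in Hydra, and iCRT14 is a small molecule that inhibits the interaction of β-catenin with TCF.

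All animals were polyps of strain 105, cut at mid-body, and each library was made from about 15 pooled regenerating tips, which are either head regenerates or foot regenerates. Treated polyps were kept in 5 µM iCRT14 from 2 h before amputation until collection, and the remaining polyps were untreated. Tips were collected at 0, 3, 8 and 12 h, so that treated tips had 2, 5, 10 and 14 h of exposure. The labels name no vehicle control for the untreated polyps. There were 35 iCRT14 libraries and 36 untreated libraries, in 16 groups of 3 to 5. At 0, 3, 8 and 12 h, iCRT14 head regenerates had 4, 4, 5 and 4 libraries, iCRT14 foot regenerates had 4, 5, 4 and 5, and untreated tips had 5, 3, 5 and 5 on each side.

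Library totals ranged between 4733808 and 42289021 counts in peaks, and depth differed between groups. At 8 h, iCRT14 head libraries held 4733808 to 10163692 counts, against 13541165 to 24162511 in untreated head libraries. The 8 h foot libraries held 6860807 to 10485588 counts in iCRT14, against 13186147 to 27660031 in untreated tips. The labels give no library batch, so a preparation batch and the treatment cannot be told apart. In tissue tips, more cells of a type with an open region and more accessibility per cell cannot be told apart.

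Of all peaks, 70549 reached 2 CPM at 3 h on both sides, and 978 of these met the 3 h criterion on both sides. Of the 978, 341 were back near their 0 h level at 12 h on both sides, and 24 of those were left out because head and foot differed at 12 h. The 317 transient peaks are 0.273% of all peaks. Another 137 of the 978 stayed at least 1 log2 unit above 0 h at 12 h on both sides and serve below as a comparison set, called kept-open peaks. No limit on the difference between head and foot at 12 h was set for them. The smallest head or foot differences among transient peaks were 1.0015 for peak_16986, 1.0024 for peak_63831 and 1.0032 for peak_7385. Just outside the threshold were peak_26862 at 0.9999, peak_21607 at 0.9976 and peak_9513 at 0.9971.

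The number of transient peaks depends on replicate 1. That library was the highest of the 3 untreated libraries at 3 h on each side. Transient peaks summed to 7186, 4452 and 5060 CPM in the untreated 3 h head libraries and 7816, 5519 and 4900 CPM in the foot libraries. Without replicate 1 of every group 149 peaks met the criteria, of which 136 are among the 317. The values of those 136 are given beside the main results.

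In untreated tips the summed level of the transient peaks went up and came down within the series, which is how the peaks were chosen. The sum averaged 1991 ± 67.2 CPM at 0 h, 5566 ± 1436 CPM at 3 h, 2649 ± 120 CPM at 8 h and 2106 ± 151 CPM at 12 h in head regenerates (SD, n = 5, 3, 5 and 5). In foot regenerates it averaged 1873 ± 70.7, 6078 ± 1537, 2252 ± 64.9 and 1908 ± 62.2 CPM at the same times. The 8 h libraries were not used to choose the peaks. The 0 h and 3 h libraries were, so differences from them are not independent of the choice. At 8 h the median difference from 0 h, on the log2(CPM + 0.5) scale, was 0.42 in head regenerates and 0.33 in foot regenerates, against 1.29 and 1.49 at 3 h. Of the 317 peaks, 164 were less than 0.5 above 0 h on both sides at 8 h and 1 was at least 1 above it on both sides. On each side alone, 196 in head and 227 in foot regenerates were less than 0.5 above 0 h. Over all 115968 peaks the counts were 104065 and 102266. At least 1 above 0 h were 5 and 2 of the 317, against 0.901% and 0.521% of all peaks.

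**Figure D1:**
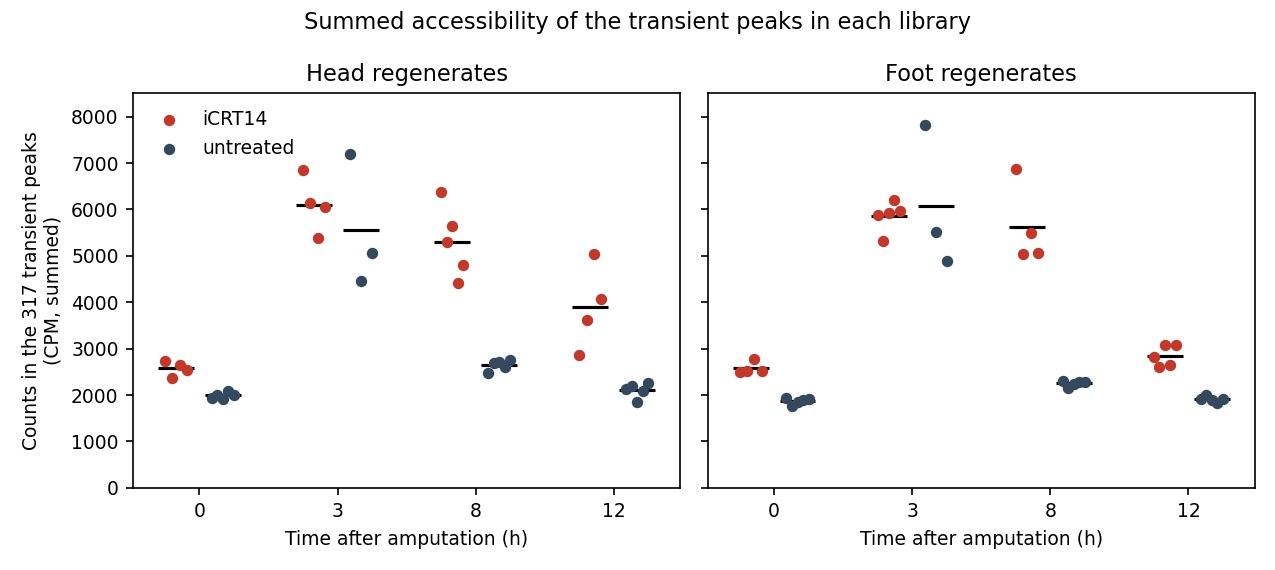
CPM summed over the 317 transient peaks (y axis) in every library by time after amputation in hours (x axis), head regenerates left and foot regenerates right, with iCRT14 in red left of untreated in dark blue. Each point is 1 library and each line a group mean. At 8 h the iCRT14 libraries lie between 4408 and 6869 CPM, above all untreated 8 h libraries, which lie between 2146 and 2763 CPM.

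The transient peaks also opened by 3 h in iCRT14, in libraries that played no part in choosing them. The summed level averaged 6105 ± 593 CPM at 3 h and 2575 ± 156 CPM at 0 h in head regenerates (SD, n = 4 each), and 5859 ± 329 CPM at 3 h and 2576 ± 132 CPM at 0 h in foot regenerates (n = 5 and 4). All 3 h libraries lay above all 0 h libraries on each side. At 0 h, after 2 h of exposure, these sums lay above the untreated ones, which averaged 1991 CPM (head regenerates) and 1873 CPM (foot regenerates). The untreated 0 h libraries helped choose the peaks, so this difference is not independent of that choice. Kept-open peaks met the same 3 h criterion. Their sum at 0 h averaged 1681 CPM in iCRT14 and 597 CPM in untreated head regenerates, and 1660 and 634 CPM in foot regenerates. By edgeR's quasi-likelihood test with Benjamini-Hochberg adjustment over 108934 tested peaks, which included all 317, 279 transient peaks rose in head regenerates (8.27% of all tested peaks did) and 261 rose in foot regenerates (5.15%). None fell on either side by edgeR or DESeq2 (0 and 1 at unadjusted p below 0.05), where 10.1% and 10.5% of tested peaks fell. The rise was called on both sides for 248 transient peaks and on neither for 25, and these shares over all tested peaks were not counted. The median log2 fold change was 1.25 in head regenerates and 1.14 in foot regenerates, against 0.0067 and -0.0031 over all tested peaks.

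Among the 136 peaks also found without replicate 1, 128 rose in head regenerates and 115 in foot regenerates. Of the 137 kept-open peaks, 100 and 86 rose, and the difference between the sets was not tested.

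The transient peak with the highest level in untreated 3 h libraries was peak_57380 (Sc4wPfr_338.1:843134-845588, 2454 bp). In iCRT14 head regenerates it had 238, 177, 167 and 193 CPM at 3 h, against 75.7, 42.4, 53.5 and 50.3 CPM at 0 h. In iCRT14 foot regenerates it had 177, 148, 196, 193 and 169 CPM at 3 h, against 71.4, 49.8, 54.4 and 52.7 CPM at 0 h. The 3 h and 0 h libraries did not overlap on either side. Its log2 fold change was 1.86 ± 0.23 (SE) in head and 1.62 ± 0.22 in foot regenerates, with adjusted p = 7.1e-10 and 1.1e-08 by edgeR. At 0 h its iCRT14 levels already lay above the untreated ones, which were 23.7, 29.9, 20.2, 34.5 and 27.8 CPM in head and 24.6, 21.7, 18.8, 25.4 and 25.7 CPM in foot regenerates. Those untreated libraries helped choose the peaks, so the difference at 0 h is not independent of that choice.

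The largest rise in iCRT14 was at peak_46496 (Sc4wPfr_2717:2225-4642). In head regenerates it had 52.8, 61.7, 34.8 and 71.1 CPM at 3 h, against 4.76, 4.16, 3.05 and 4.54 CPM at 0 h. In foot regenerates it had 75.9, 70.4, 67.0, 47.6 and 46.4 CPM at 3 h, against 3.66, 4.40, 5.43 and 4.73 CPM at 0 h. Every 3 h library was several times above every 0 h library, and the log2 fold changes were 3.78 ± 0.24 and 3.75 ± 0.24 (SE; edgeR adjusted p = 1.4e-21 and 8.6e-22). Untreated libraries had 33.7, 19.0 and 25.6 CPM in head and 49.2, 31.8 and 25 CPM in foot regenerates at 3 h, below all iCRT14 libraries in head regenerates and overlapping them in foot regenerates.

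Another strongly opened peak was peak_95769 (Sc4wPfr_677:79573-81493). It had 213, 151, 120 and 210 CPM at 3 h in iCRT14 head regenerates, against 35.2, 27.2, 32.9 and 20.2 CPM at 0 h. Foot regenerates had 214, 167, 206, 162 and 108 CPM at 3 h, against 31.7, 24.3, 27.4 and 20.6 CPM at 0 h. The groups did not overlap on either side, with log2 fold changes of 2.63 ± 0.22 and 2.72 ± 0.22 (SE; edgeR adjusted p = 4.3e-16 and 6.5e-17).

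The 25 peaks called on neither side had a median untreated 3 h level of 7.01 CPM, against 10.1 CPM in the other transient peaks. Their median width was 626 bp, against 920 bp over all transient peaks, and levels are not divided by width. The 4 with the smallest mean change included peak_60309 (Sc4wPfr_360:188361-188739). It had 30.4, 19.2, 22.4 and 12.7 CPM at 3 h in iCRT14 head regenerates, against 29.8, 20.3, 21.0 and 20.3 CPM at 0 h, and these groups overlap. In foot regenerates it had 16.4, 12.5, 15.9, 18.2 and 15.8 CPM at 3 h, against 25.9, 20.2, 15.7 and 20.1 CPM at 0 h. Its log2 fold changes were -0.058 ± 0.20 and -0.39 ± 0.20 (SE; edgeR adjusted p = 0.89 and 0.20), and the sign in head regenerates turned to 0.054 without replicate 4.

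The other weak example is peak_79152 (Sc4wPfr_5:1749523-1750350), a peak of low level. It had 3.96, 1.95, 2.87 and 3.75 CPM at 3 h in iCRT14 head regenerates, against 10.9, 2.36, 1.62 and 3.19 CPM at 0 h. In foot regenerates it had 3.14, 3.14, 4.14, 5.6 and 5.22 CPM at 3 h, against 1.95, 2.50, 3.43 and 4.01 CPM at 0 h. The single value of 10.9 CPM stands apart in its group, and without replicate 1 the head log2 fold change was 0.23 in place of -0.51. Neither side passed the test (edgeR adjusted p = 0.44 in head and 0.47 in foot regenerates).

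**Figure D2:**
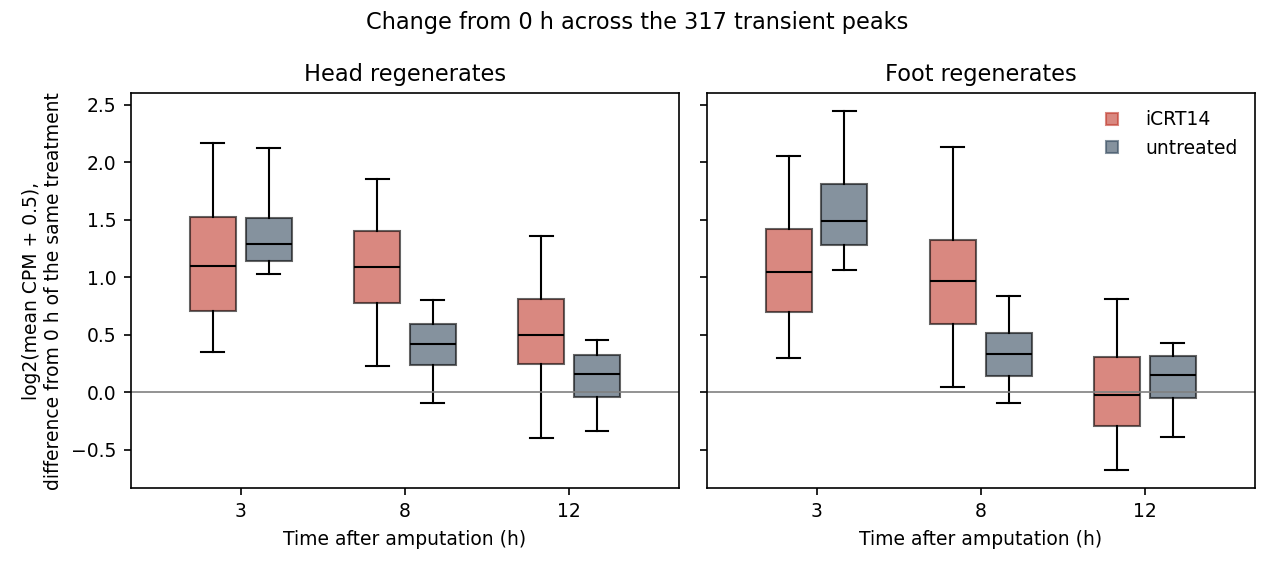
Difference of log2(mean CPM + 0.5) from 0 h of the same treatment (y axis) across the 317 transient peaks at 3, 8 and 12 h (x axis), iCRT14 in red left of untreated in grey. Boxes span the quartiles with the median as a line, and whiskers reach the 5th and 95th percentiles. At 8 h the iCRT14 medians are 1.09 in head and 0.97 in foot regenerates, against 0.42 and 0.33 in untreated ones.

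At 8 h most transient peaks were more open in iCRT14 than in untreated tips. The summed level averaged 5309 ± 762 CPM in iCRT14 and 2649 ± 120 CPM in untreated head regenerates (SD, n = 5 each), and 5623 ± 856 CPM in iCRT14 and 2252 ± 64.9 CPM in untreated foot regenerates (n = 4 and 5). By edgeR's test 265 transient peaks were higher in iCRT14 than in untreated head regenerates (8.67% of all tested peaks were) and 258 were higher in foot regenerates (8.4%). None was lower on either side by edgeR or DESeq2 (1 and 0 at unadjusted p below 0.05), where 8.56% and 9.67% of tested peaks were. The call held on both sides for 238 transient peaks and on neither for 32, and these shares over all tested peaks were not counted. The median log2 fold change was 1.07 in head and 1.18 in foot regenerates, against 0.035 and 0.043 over all tested peaks.

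Every iCRT14 library lay above every untreated library at 8 h for 202 transient peaks in head regenerates (4.11% of all peaks) and for 223 in foot regenerates (7.6%). Of the 136 peaks found without replicate 1, 127 and 117 were called higher in iCRT14. The transient peaks were chosen as low at 12 h in untreated tips, so a low untreated level at 8 h is not independent of that choice. Kept-open peaks, chosen as high at 12 h in untreated tips, were also called higher in iCRT14 at 8 h, 87 of 137 in head and 105 of 137 in foot regenerates. The iCRT14 libraries were shallower at 8 h, and the part of depth in these calls was not tested.

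**Figure D3:**
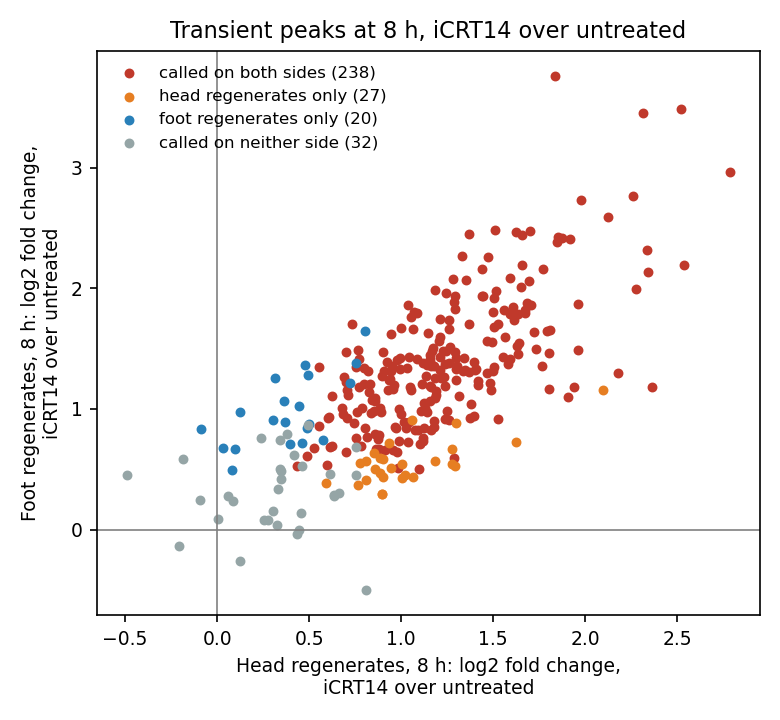
Log2 fold change at 8 h, iCRT14 over untreated, in head regenerates (x axis) and foot regenerates (y axis) for each of the 317 transient peaks, coloured by the side on which the peak was called higher (adjusted p below 0.05). The 238 peaks called on both sides lie in the upper right, and 32 grey peaks were called on neither side.

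Among the 4 largest 8 h differences on each side was peak_71704 (Sc4wPfr_439:1113702-1114662). It had 60.2, 34.0, 30.6, 22.0 and 27.4 CPM in iCRT14 head regenerates, against 6.67, 5.98, 7.51, 5.96 and 4.58 CPM in untreated ones. Foot regenerates had 89.7, 51.7, 62.1 and 46.3 CPM in iCRT14, against 5.64, 5.44, 4.70, 5.72 and 5.46 CPM in untreated ones. The log2 fold changes were 2.52 ± 0.28 and 3.49 ± 0.29 (SE; edgeR adjusted p = 4.7e-11 and 2.7e-16). This peak was higher at 8 h than at 3 h in iCRT14, where it had 16.1, 12.9, 10.7 and 13.5 CPM in head and 13.2, 8.40, 13.7, 13.8 and 12.1 CPM in foot regenerates at 3 h.

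At peak_51364 (Sc4wPfr_30:141272-142396) the 8 h levels were 63.3, 56.6, 46.3, 28.7 and 27.6 CPM in iCRT14 head regenerates, against 8.36, 10.6, 12.2, 9.06 and 6.56 CPM in untreated ones. Foot regenerates had 83.5, 51.3, 51.3 and 38.4 CPM in iCRT14, against 9.85, 8.52, 7.28, 8.10 and 6.83 CPM in untreated ones. The log2 fold changes were 2.26 ± 0.22 and 2.76 ± 0.23 (SE; edgeR adjusted p = 4.9e-13 and 2.2e-16). At peak_57380 the 8 h levels were 150, 97.7, 117, 60.4 and 85 CPM in iCRT14 head regenerates, against 32.7, 31.7, 31.6, 37.8 and 26.7 CPM in untreated ones. All iCRT14 values exceed all untreated ones at both peaks.

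Within iCRT14, 273 transient peaks were higher at 8 h than at 0 h in head regenerates (13.7% of all tested peaks) and 219 in foot regenerates (6.19%), where 0 and 4 were lower (12.7% and 8.14%). The transient peaks called higher than at 0 h at both 3 h and 8 h numbered 251 in head and 187 in foot regenerates. The share of all tested peaks called at both times was not counted. From 3 h to 8 h, 74 peaks fell and 30 rose in head regenerates (8.48% and 8.55% of all tested peaks), and 82 fell and 51 rose in foot regenerates (5.41% and 5.94%). The head count of 74 fell to 43 without replicate 2 and 42 without replicate 4. The median log2 fold change from 3 h to 8 h was -0.18 on each side.

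By 12 h in iCRT14 most transient peaks had closed again in foot regenerates, and fewer were called lower than at 3 h in head regenerates. Against 3 h, 170 fell in head regenerates (7.07% of all tested peaks) and 247 in foot regenerates (8.94%), with median log2 fold changes of -0.71 and -1.15, whereas 13 and 11 rose (8.7% and 14.1%). Against 0 h, 141 were still higher in head regenerates (7.86%), with a median log2 fold change of 0.64, and 44 in foot regenerates (7.37%), with a median of 0.048. Another 6 were lower than at 0 h in head regenerates (6.57%) and 21 in foot regenerates (5.9%). The head count of 141 became 80 without replicate 3. The summed level averaged 3902 ± 909 CPM in head regenerates and 2845 ± 223 CPM in foot regenerates at 12 h in iCRT14 (SD, n = 4 and 5).

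Head and foot were compared directly at each time in iCRT14. No transient peak differed at 0 h or at 3 h by edgeR's test (0.162% and 0.00459% of all tested peaks did), with 11 and 19 at unadjusted p below 0.05. DESeq2 also called none. At 8 h, 14 were higher and 11 lower in head than in foot regenerates (0.812% and 0.486%). At 12 h, 59 were higher in head regenerates (3.06%) and none was lower by edgeR (1.59%), by DESeq2 or at unadjusted p below 0.05, with a median log2 fold change of 0.46. Leaving out replicate 1 gave 105 peaks at 12 h, replicate 2 gave 28, replicate 3 gave 17 and replicate 4 gave 27. The 25 peaks at 8 h became 7, 16 and 15 when replicates 2, 3 and 4 were dropped in turn. Of the 137 kept-open peaks, 47 were higher in head regenerates at 12 h in iCRT14 and 0 were lower. Kept-open peaks were chosen with no limit on the difference between head and foot. Transient peaks were chosen with head and foot less than 0.5 apart at 12 h in untreated tips, so the sides were not compared there.

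The difference between sides was tested as a change over time. From 3 h to 12 h in iCRT14, 5 transient peaks changed more towards head than towards foot regenerates (0.323% of all tested peaks) and none the other way (0.171%; 4 at unadjusted p below 0.05, and none by DESeq2). Leaving out replicate 1 gave 16 such peaks, replicates 2 and 3 gave 0 each, and replicate 4 gave 2. From 0 h to 3 h no transient peak differed between sides (0.000918% of all tested peaks) by edgeR or DESeq2, with 12 at unadjusted p below 0.05. At peak_46496, 1 of the 5, the 12 h levels were 6.23, 12.1, 19.2 and 14.6 CPM in iCRT14 head regenerates, against 4.89, 4.26, 5.72, 5.46 and 5.10 CPM in iCRT14 foot regenerates, and the groups did not overlap.

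In untreated tips at 8 h, 22 transient peaks were higher in head than in foot regenerates (2.38% of all tested peaks) and none was lower (0.94%; 5 at unadjusted p below 0.05, and none by DESeq2). Of the 137 kept-open peaks, 43 were higher in head regenerates and 0 were lower. Unlike the transient peaks, these were chosen with no limit on the difference between head and foot at 12 h. The counts of the sets are therefore not directly comparable. Only 10 transient peaks were called without replicate 2 and 11 without replicate 4. One of the 22 was peak_12649 (Sc4wPfr_1259:460380-461134), with 53.3, 57.7, 47.4, 52.2 and 60.6 CPM in untreated head regenerates, against 25.8, 26.5, 22.4, 22.7 and 31.8 CPM in untreated foot regenerates. The log2 fold change was 1.08. In iCRT14 at 12 h the same peak had 52.5, 62.2, 75.5 and 71.8 CPM in head regenerates, against 26.3, 27.9, 33.7, 34.2 and 32.6 CPM in foot regenerates, with a log2 fold change of 1.10 ± 0.15 (SE; edgeR adjusted p = 4.4e-08). The effect of iCRT14 at 8 h differed between sides for 1 transient peak, peak_2380, at -0.94 ± 0.23 (SE; edgeR adjusted p = 0.043), where 0.171% of all tested peaks were lower and 0.0239% higher. No peak was called without replicate 2, 3, 4 or 5, with no filter on low counts or with the compared groups alone.

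**Figure D4:**
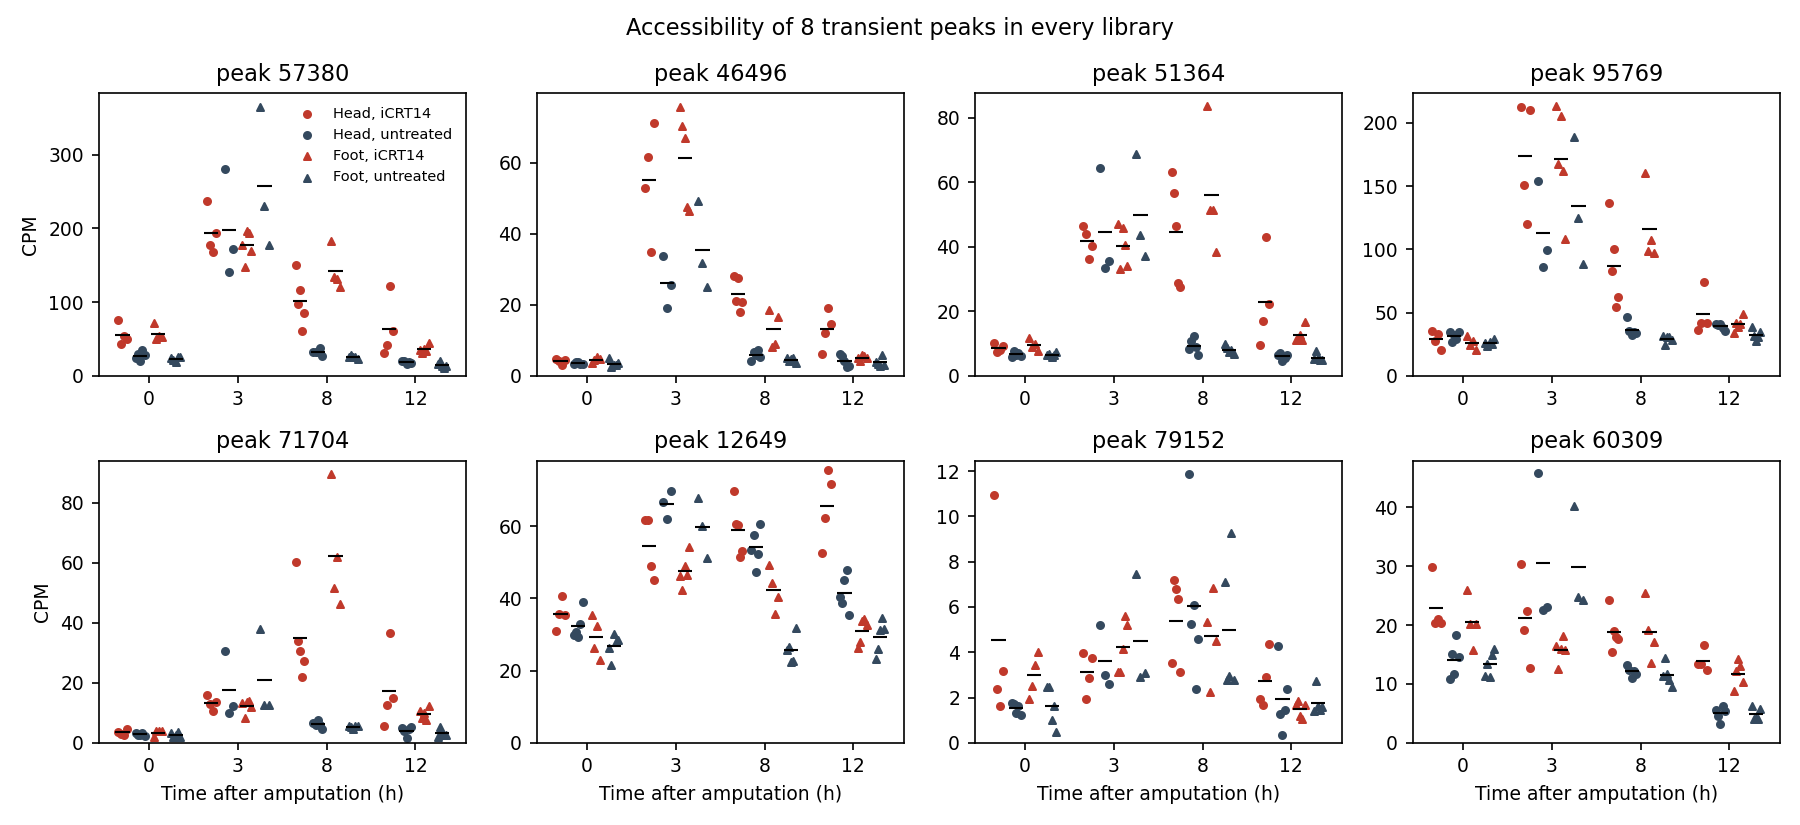
CPM (y axis) of 8 transient peaks in every library by time in hours (x axis). Circles are head and triangles foot regenerates, red is iCRT14 and dark blue untreated, and lines are group means. At peak_71704 the iCRT14 8 h libraries lie between 22.0 and 89.7 CPM, above untreated 8 h libraries between 4.58 and 7.51 CPM.

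Taking the same thresholds to the iCRT14 libraries, 46 of the 317 peaks met all criteria there. In iCRT14, 148 met the 3 h criterion on both sides, 124 were still at least 1 log2 unit above 0 h on both sides at 8 h, and 156 were less than 0.5 above 0 h on both sides at 12 h. Another 115 were at least 0.5 above 0 h at 12 h in head regenerates alone, and 2 in foot regenerates alone. Shares over all peaks were taken on each side alone, not jointly, so the 46 and the other joint counts have no share beside them. Whether they are many or few among all peaks is not shown. At 3 h in iCRT14, 1.06% of all peaks in head and 0.956% in foot regenerates were at least 1 above 0 h. At 8 h the shares were 2.93% and 1.85%. Less than 0.5 above 0 h at 12 h were 108765 and 111260 of all 115968 peaks, against 158 and 271 of the 317.

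Transient peaks and the other peaks that opened at 3 h were compared by width, with no test. The transient peaks' median width was 920 bp (149 to 4163 bp), against 569 bp over all peaks, 796 bp over all 978 peaks opened at 3 h, 769 bp over peaks that reached 2 CPM at 3 h and 644 bp over kept-open peaks. Of the 317, 77 (24.3%) were at least 1500 bp wide, against 20.4% of the 978 peaks opened at 3 h, which include them, 12.0% of those that reached 2 CPM and 7.62% of all peaks. Counts are not divided by width, and wider transient peaks had higher levels. The median untreated 3 h level was 18.7 CPM in the 79 widest and 4.44 CPM in the 80 narrowest. The narrowest was peak_22616 at 149 bp and the widest peak_97556 at 4163 bp, and both were called higher in iCRT14 than in untreated tips at 8 h on each side.

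Transient peaks also lay together. They fell on 165 of 4010 scaffolds, with 102 alone on theirs. Of the 317, 96 (30.3%) had another transient peak as the next peak along the scaffold, against 0.505% of all peaks. None of the 137 kept-open peaks had a transient peak next to it, a share close to the 0.505% of all peaks. Whether kept-open peaks lay beside each other was not counted. Any peak opened at 3 h was the next peak for 42.9% of transient peaks and 1.49% of all peaks. The 96 transient peaks beside another formed 40 runs, of which 33 held 2 peaks. Neighbouring peaks share their local sequence and chromatin and are not separate replicates, and no test was made. The scaffold with most was Sc4wPfr_1964, where 12 of 28 peaks were transient. It holds 1 of the 2 longest runs, of 6 peaks from peak_31087 to peak_31092 (Sc4wPfr_1964:102269-122189). All 6 rose in iCRT14 at 3 h on both sides, with log2 fold changes between 1.09 and 2.30, and all 6 were higher in iCRT14 than in untreated tips at 8 h.

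The share of other peaks that opened in iCRT14 was described by their distance to a transient peak, with no test. Among other peaks within 2000 bp, 44.1% rose from 0 h to 3 h in head regenerates and 46.3% in foot regenerates (n = 270). At 2000 to 10000 bp the shares were 36.6% and 34.5% (n = 675), and at 10000 to 50000 bp they were 17.4% and 15.8% (n = 2174). On scaffolds with no transient peak they were 7.24% and 4.22% (n = 82133).

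**Figure D5:**
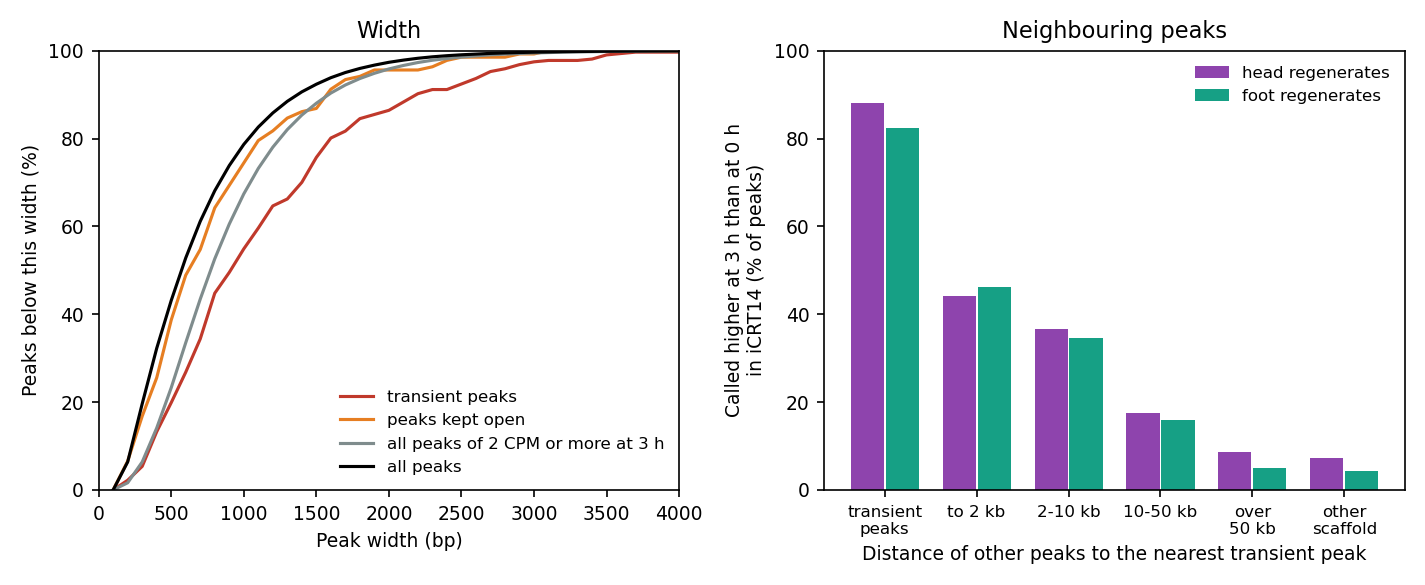
Left, cumulative share of peaks (y axis, %) by width in bp (x axis) for transient peaks, kept-open peaks, all peaks of at least 2 CPM at 3 h and all peaks. Right, share of peaks called higher at 3 h than at 0 h in iCRT14 (y axis, %) for transient peaks and for other peaks by distance to the nearest transient peak. The right panel steps down from 88.0% of transient peaks to 7.24% on other scaffolds in head regenerates.

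Motif deviation scores, the authors' measure of accessibility at peaks with a motif, were set beside the median level of the transient peaks over the 8 iCRT14 groups. The closest of 332 motifs were Srebp2(bHLH) with a Pearson r of 0.93, ZNF467(Zf) with 0.93, CHR(?) with 0.92, ISRE(IRF) with 0.91 and n-Myc(bHLH) with 0.91. The scores and levels come from the same libraries, and these 5 are given as a description. The Srebp2(bHLH) score averaged 1.16 at 3 h and -0.27 at 0 h in iCRT14 head regenerates.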

How the data were processed

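ATAC-seq was done on pooled regenerating tips, with about 50000 nuclei per library per the labels' protocols. The deposited table holds raw read counts for 115968 consensus peaks, and the submitters' processing notes list Trimmomatic 0.36, Bowtie2 2.2.6, Picard 2.17.8, SAMtools 1.2, deepTools 3.3.1 and DiffBind. The genome build is not given in the sources used here, nor is whether coordinates start at 0 or 1, so positions are as deposited. The smallest deposited count is 1, which makes up 3.94% of values. The authors' motif deviation scores were used as deposited. RNA-seq tables were not used here.

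CPM were computed from counts in peaks. Tests used edgeR 4.0.16 (TMM, filterByExpr, quasi-likelihood, 1 mean per group over all 71 ATAC libraries) with Benjamini-Hochberg adjusted p below 0.05 over 108934 peaks, in R 4.3.3. SEs were derived from the quasi-likelihood F. DESeq2 1.42.0, other scalings, filters, pseudocounts and levels, each replicate left out and a replicate block were alternatives. The edgeR test of 1 contrast was run on simulated counts in which all peaks had the same spread.

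The peaks and lists were chosen with earlier results of these data known. Of 20 contrasts, 4 were added after seeing the data, as was the 136-peak subset. Named peaks are those with the highest levels, the largest or smallest changes at 3 and 8 h, the extreme widths, the threshold edges and the longest run. The 8 printed library by library were picked from these with their values known. Contrasts of untreated 0, 3 and 12 h libraries, which chose the peaks, were not tested. Replicates are described as biological, so p-values measure the spread between pools of tips.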

Additional observations from a re-analysis of the deposited data

Results flagged for a closer look

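Single libraries stood apart from the rest of their group by Dixon's criterion in 10 cases among the summed level and the 8 peaks printed library by library. A share of such flags comes by chance, since the criterion is set at 95%. The untreated 3 h groups, with 3 libraries each, were too small to be checked this way. The summed level was 2772 CPM in replicate 3 of iCRT14 foot regenerates at 0 h. At peak_95769 the values were 161 CPM in replicate 1 of iCRT14 foot regenerates at 8 h, 74.3 CPM in replicate 3 of iCRT14 head regenerates at 12 h and 46.3 CPM in replicate 1 of untreated head regenerates at 8 h. At peak_71704 they were 1.95 CPM in replicate 1 of iCRT14 foot regenerates at 0 h and 4.70 CPM in replicate 3 of untreated foot regenerates at 8 h. At peak_79152 they were 10.9 CPM in replicate 1 of iCRT14 head regenerates at 0 h and 2.72 CPM in replicate 2 of untreated foot regenerates at 12 h. Replicate 1 of iCRT14 head regenerates at 0 h also stood apart at peak_60309, with 29.8 CPM. At peak_51364 the value was 7.69 CPM in replicate 2 of untreated foot regenerates at 12 h.

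The change from 3 h to 12 h in iCRT14 differed between head and foot regenerates for 5 transient peaks by edgeR's test of that difference, all towards head. The log2 differences were 1.04 at peak_102340, 0.82 at peak_12649, 0.97 at peak_22592, 1.48 at peak_46496 and 1.19 at peak_98135. With a replicate left out the count ran from 0 to 16. The effect of iCRT14 at 8 h differed between sides for 1 peak, peak_2380, at -0.94. That call was lost (0 peaks) without replicate 2, 3, 4 or 5, with no filter on low counts and with the compared groups alone.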

How the results depend on the processing

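Of 254 alternative values for counts, 218 stayed within 1.5 times the main count. Transient peaks numbered 208 with a pseudocount of 2 CPM and 149 to 447 with a replicate left out. Leaving out a replicate gave 42 to 87 peaks lower at 8 h than 3 h and 80 to 167 higher at 12 h than 0 h in iCRT14 head regenerates. Head against foot in iCRT14 then gave 0 to 1 at 3 h, 7 to 21 at 8 h and 17 to 105 at 12 h, and 10 to 21 in untreated tips at 8 h. The side difference from 3 h to 12 h gave 0 to 16 and that in the iCRT14 effect at 8 h gave 0 to 1. Fitting the compared groups alone gave 2 for head against foot at 0 h, 7 at 8 h and 0 for the side difference in the iCRT14 effect. That difference gave 4 with library size alone, 0 with no filter and 2 with DESeq2, and the side difference from 3 h to 12 h gave 8 with library size alone and 10 with DESeq2. In none of the 20 contrasts did every same-numbered pair of libraries correlate above the cutoff set for pairing (correlation of deviations from -0.22 to 0.28). Head and foot pairs at 8 h correlated at 0.011 to 0.28 in iCRT14 and at -0.13 to 0.28 in untreated tips. The main tests did not pair libraries, and some pairing by number is not excluded. With a replicate block, head against foot gave 2, 46 and 97 in iCRT14 at 0, 8 and 12 h and 39 in untreated tips at 8 h, and the side difference in the iCRT14 effect gave 2. The main counts, in the same order, were 0, 25, 59, 22 and 1. Signs turned at 3 h against 0 h for 4 peaks that were not called. With a replicate left out, the log2 fold change ran from -0.18 to 0.054 at peak_60309, -0.029 to 0.076 at peak_103214 and -0.77 to 0.23 at peak_79152 in head regenerates, and from -0.048 to 0.36 at peak_26192 in foot regenerates. The other reversals were at peak_103214 with library size alone (-0.036), the compared groups alone (-0.029) and the replicate block (-0.038), and at peak_26192 with the replicate block (-0.10). Causes were not tested.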
